A study of Mus musculus with 14 samples.

Results

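The 7 genes described here encode the kainate receptor subunits (Grik1, Grik2, Grik3, Grik4 and Grik5) and their auxiliary proteins (Neto1 and Neto2). They were chosen by gene symbol, with no measured value used, and are 7 of the 55536 genes of the annotation and of the 18693 genes with an assembled transcript in any library. RNA from the hippocampus of C57BL6 mice labelled 30-day old was sequenced in 14 libraries. The mice were wild type (KMT2D+/+) or carried 1 bGeo allele of the histone methyltransferase gene Kmt2d (KMT2D+/bGeo, called mutants here). They were gavaged for 2 weeks from the age of 2 weeks with TAK-418, which blocks the histone demethylase LSD1, at a dose of 1 mg/kg/day in methylcellulose, or with methylcellulose alone, so every group received the vehicle and the gavage. On vehicle there were 3 wild types and 3 mutants, and on TAK-418 there were 5 wild types and 3 mutants, although the series text gives 3 to 4 per group. Each library has a title number of its own and was taken as 1 mouse. The replicate numbers used here count the libraries of each group in sample order. They are not from the labels and match no libraries across groups. The sex of the mice is not given in the sources used here, nor is the part of Kmt2d that the bGeo allele changes. The crossed design addresses which hippocampal transcripts differ with the Kmt2d allele and whether LSD1 inhibition moves them.

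Kainate receptors are tetrameric glutamate-gated cation channels. The subunits GluK1, GluK2 and GluK3 form channels on their own, whereas GluK4 and GluK5 bind glutamate with higher affinity and reach the surface only together with one of the other kind. Neto1 and Neto2 are single-pass membrane proteins that join the channel and modulate its gating. In the hippocampus the family is best known from the mossy fibre synapse, which dentate granule cells make on CA3 pyramidal cells, and from interneurons.

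Relative depth, inferred from the step between the deposited values, spanned 35.1 to 59.98 M (M, mega) in all libraries but wild-type TAK-418 replicate 1, which reached 167.6 M. The share of assembled transcripts that could be given to a gene also differed. It was 90.1%, 86.3% and 89.5% in wild-type TAK-418 replicates 2, 4 and 5 and 87.3% in wild-type vehicle replicate 3. In the other libraries it was 78.2% to 82.9%, and its part in the group differences was not tested. All 7 members were listed in all 14 libraries. Kmt2d had a scaled level of 14.05 ± 0.234 (SD, n = 3) for wild types and 11.97 ± 2.15 (SD, n = 3) for mutants on vehicle, and 15.3 ± 2.38 (SD, n = 5) for wild types and 12.5 ± 2.74 (SD, n = 3) for mutants on TAK-418, so the groups overlapped. Kdm1a, the gene of LSD1, lay between 30.0 and 35.9 in the 14 libraries. Markers of the hippocampal cell types were present in all libraries, and the summed level of 4 CA1 markers ranged from 101 to 122. Among the CA1 markers, Pou3f1 ranged from 1.02 to 24.4 and was highest in mutant TAK-418 replicate 3. The summed level of 6 choroid plexus markers, an epithelium beside the hippocampus, ran from 20.7 to 6497 in wild-type vehicle, from 44.5 to 5055 in mutant vehicle, from 15.4 to 43.7 in wild-type TAK-418 and from 21.4 to 611 in mutant TAK-418 libraries. It was led by Ttr, at 6.51 to 6396. Of the other choroid plexus markers, Clic6 and Kcnj13 were listed at 0 in 4 libraries and Otx2 in 8, while Folr1 ranged from 0.540 to 28.6 and Kl from 5.46 to 41.8. In bulk tissue, fewer cells of a type and less RNA per cell cannot be told apart.

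Grik5 was by far the most abundant member and Grik1 and Grik3 the least. A level here is the summed abundance of a gene's assembled transcripts, which is per transcript length, scaled between libraries by the median of ratios. Over the 14 libraries, the level averaged 94.0 ± 6.23 (SD, n = 14) for Grik5, 42.7 ± 4.66 (SD) for Neto1, 26.6 ± 1.93 (SD) for Grik4, 24.2 ± 2.08 (SD) for Grik2, 15.9 ± 1.63 (SD) for Neto2, 6.76 ± 0.583 (SD) for Grik3 and 6.45 ± 1.75 (SD) for Grik1. The ranges of neighbours in this order did not overlap, except for 2 pairs. Grik4 was above Grik2 in 12 of 14 libraries, and Grik3 was above Grik1 in 9 of 14. The mean of Grik5 was 2.20 times that of Neto1, the next gene. Each level rests on an implied 656 fragments or more in the shallowest case (Grik1) and 12416 or more for Grik5. These fragment numbers are worked out from abundance, length and relative depth and are not counts from the files.

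**Figure D1:**
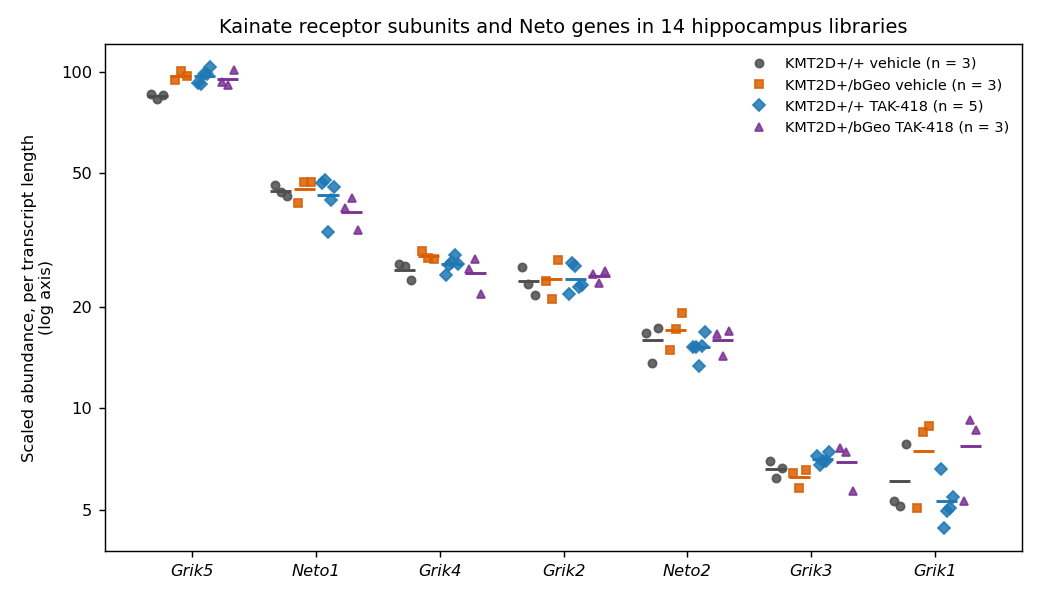
Level of each member (log axis, scaled abundance per transcript length) in the 14 libraries, with 1 point per library and a bar at each group's mean. Grik5 stands above all other members in every library, and Grik1 has 6 libraries from 6.61 to 9.21 above the rest.

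The high-affinity subunits made up most of the subunit transcripts. The sum of the levels of Grik4 and Grik5 was 3.23 ± 0.264 (SD, n = 14) times the sum of Grik1, Grik2 and Grik3, with a range of 2.91 to 3.64. Grik5 alone was 59.4% ± 1.76 (SD, n = 14) of the sum over the 5 subunits. By group this share was 57.7% ± 0.913 (SD, n = 3) for wild types and 59.5% ± 1.70 (SD, n = 3) for mutants on vehicle, and 60.4% ± 1.27 (SD, n = 5) for wild types and 59.6% ± 2.45 (SD, n = 3) for mutants on TAK-418. The level of Neto1 was 2.70 ± 0.334 (SD, n = 14) times that of Neto2, from 2.00 to 3.22. 

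Grik1 (chr16:87895900-88290265, minus strand, GRCm38) encodes GluK1, a subunit found mainly in interneurons in the adult hippocampus. Its level was 5.29, 5.12 and 7.85 in wild-type vehicle libraries 1 to 3, and 5.05, 8.48 and 8.87 in mutant vehicle libraries 1 to 3. It was 6.61, 4.41, 4.96, 5.06 and 5.46 in wild-type TAK-418 libraries 1 to 5, and 5.30, 9.21 and 8.60 in mutant TAK-418 libraries 1 to 3. The levels fell into a low and a high set that cut across all 4 groups. The 6 highest libraries, from 6.61 to 9.21, were those in which a short transcript of the gene's 3′ end, with a pair of exons, had been assembled. Counting every transcript with under 50% of the annotated introns as short, 7 of 14 libraries had one, and it made up to 46.3% of the gene's abundance. Without the short transcripts, the level lay between 4.41 and 5.89 in all 14 libraries.

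**Figure D2:**
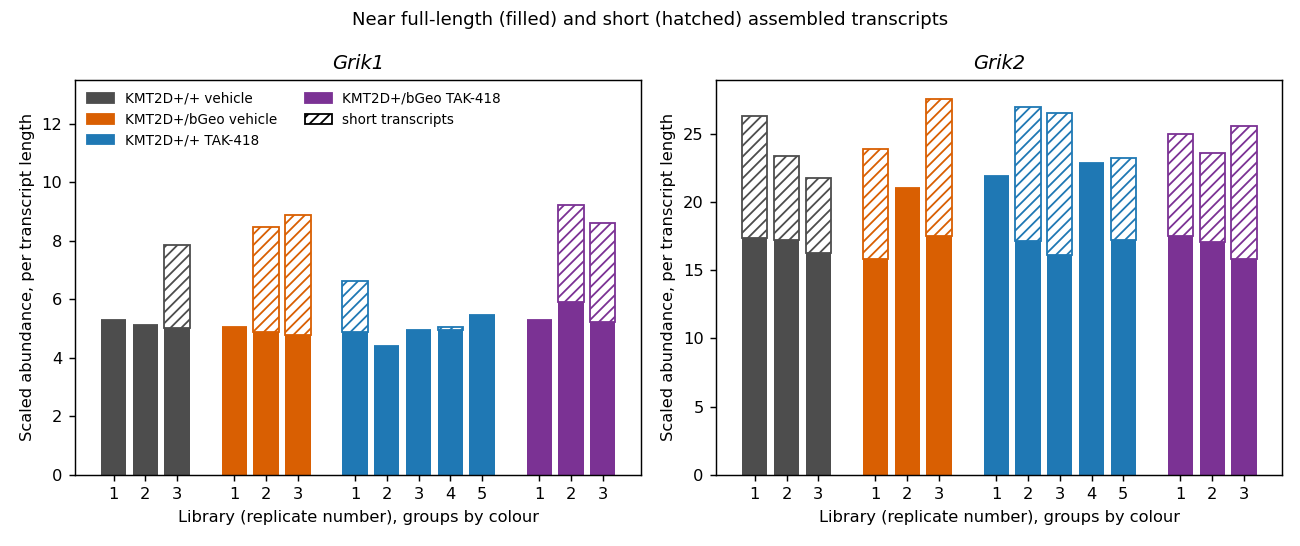
Level of Grik1 (left) and Grik2 (right) in each of the 14 libraries, as stacked bars from 0 of near full-length transcripts (filled) and short transcripts (hatched, under 50% of the introns of the longest annotated form). The filled part of Grik1 stays between 4.41 and 5.89, and its short transcripts appear in 7 libraries of all 4 groups.

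Grik1 has a pair of optional coding exons. The junction before each was used in all 14 libraries, but in some the second exon was assembled only with the intron after it kept. The exons are shown in capitals with 15 bases of the neighbouring exons on each side, since they set which form of the subunit is made. The first, of 45 bases at chr16:87955289-87955333, lies in the extracellular amino-terminal part. The second, of 87 bases at chr16:87896809-87896895, lies in the intracellular tail. The lengths are multiples of 3, so both keep the reading frame.
Grik1 exon of 45 bases: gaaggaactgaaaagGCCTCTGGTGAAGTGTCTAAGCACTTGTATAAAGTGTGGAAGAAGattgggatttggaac
Grik1 exon of 87 bases: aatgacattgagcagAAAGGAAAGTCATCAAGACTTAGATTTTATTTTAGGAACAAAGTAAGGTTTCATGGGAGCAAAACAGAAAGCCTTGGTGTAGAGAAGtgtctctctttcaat

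The exon of 45 bases was carried by 38.3% ± 16.1 (SD, n = 14) of the abundance of Grik1 transcripts with more than 1 exon. Its share was 14.4%, 62.5% and 18.6% in wild-type vehicle libraries 1 to 3, and 20.2%, 17.9% and 29.1% in mutant vehicle libraries 1 to 3. It was 46.7%, 49.7%, 54.5%, 37.7% and 57.5% in wild-type TAK-418 libraries 1 to 5, and 42.3%, 50.7% and 34.9% in mutant TAK-418 libraries 1 to 3. The 3 mutant vehicle libraries lay below all 8 TAK-418 libraries, while wild-type vehicle replicate 2 was the highest of all. When only transcripts that span the site are counted, the shares were 20.2%, 31.1% and 54.2% in mutant vehicle against 42.3%, 79.3% and 57.7% in mutant TAK-418 libraries, and the 2 groups overlapped. Counted this way, wild-type TAK-418 libraries were at 63.4%, 49.7%, 54.5%, 37.7% and 57.5%, and mutant vehicle overlapped them too. Transcripts using the junction before the exon of 87 bases held from 3.51% to 92.1% of the abundance, with a mean of 42.2% ± 25.0 (SD, n = 14), and all groups overlapped. In 7 libraries all or most of this share came from transcripts that also kept the intron of 457 bases between this exon and the last exon, and so do not hold the exon as a separate spliced exon. In the highest library, mutant vehicle replicate 1, such transcripts held 87.5% of the gene's abundance, beside 92.1% for all that use the junction. The share in mutant vehicle replicate 2 was 49.3%, all of it with the intron kept. Shares of this kind are the assembler's division of reads among forms. They come with no counts, so no interval was given and no test was run.

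Grik2 (chr10:49094833-49788766, minus strand) encodes GluK2, the main principal subunit of the mossy fibre synapse. Its level was 23.8 ± 2.28 (SD, n = 3) for wild types and 24.2 ± 3.27 (SD, n = 3) for mutants on vehicle, and 24.3 ± 2.30 (SD, n = 5) for wild types and 24.7 ± 1.00 (SD, n = 3) for mutants on TAK-418. The lowest library was at 21.05 and the highest at 27.6, both of them mutant vehicle libraries. Short transcripts were assembled in 11 libraries, and without them the level was between 15.8 and 22.9. An optional exon of 87 bases near the 3′ end carries a stop codon and replaces the end of the protein, so the annotated coding length is 2607 bases (869 codons) with it and 2724 bases (908 codons) without it. Its coding bases and stop codon (chr10:49105018-49105065) are in capitals below, after 15 bases of the exon before. The last 3 capitals are the stop codon.
Grik2 end of the shorter form: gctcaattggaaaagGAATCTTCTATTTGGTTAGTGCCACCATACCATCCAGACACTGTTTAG

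The exon that shortens GluK2 was in 11 of 14 libraries and held 8.49% ± 5.68 (SD, n = 14) of the abundance of multi-exon transcripts. Its share was 6.97%, 11.8% and 0 in wild-type vehicle libraries 1 to 3 and 0, 11.3% and 0 in mutant vehicle libraries 1 to 3. It was 20.4%, 6.30%, 10.3%, 11.5% and 11.5% in wild-type TAK-418 libraries 1 to 5 and 10.8%, 11.0% and 6.99% in mutant TAK-418 libraries 1 to 3. All 8 TAK-418 libraries had the exon, and 3 of the 6 vehicle libraries did. Depth also differed with the drug, at 35.1 to 49.8 M in vehicle and 40.8 to 167.6 M in TAK-418 libraries. The vehicle libraries without the exon were at 35.1 M (wild-type replicate 3), 40.3 M (mutant replicate 1) and 46.1 M (mutant replicate 3). The part of depth in this split was not tested. The highest share was in the deepest library. A share of 0 says that no such transcript was assembled, not that the form was absent.

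Grik3 (chr4:125490700-125714173, plus strand) encodes GluK3, a subunit with low glutamate sensitivity. Its level was 6.96, 6.20 and 6.63 in wild-type vehicle, 6.41, 5.82 and 6.56 in mutant vehicle, 7.20, 6.79, 6.99, 6.98 and 7.42 in wild-type TAK-418, and 7.60, 7.40 and 5.69 in mutant TAK-418 libraries, in the order of their replicate numbers. The 3 mutant vehicle libraries lay below the 5 wild-type TAK-418 libraries, and the other pairs of groups overlapped. Only 1 coding form is annotated. An unannotated intron of 2651 bases was assembled in 4 libraries and carried up to 11.1% of the abundance.

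Grik4 (chr9:42518135-42944493, minus strand) encodes GluK4, a high-affinity subunit concentrated in CA3 pyramidal cells and the dentate gyrus. Its level was 26.8, 26.5 and 24.0 in wild-type vehicle, 29.3, 27.9 and 27.8 in mutant vehicle, 24.9, 26.6, 27.1, 28.5 and 26.9 in wild-type TAK-418, and 25.9, 27.8 and 21.9 in mutant TAK-418 libraries, in the order of their replicate numbers. The mutant vehicle libraries were above the wild-type vehicle libraries and above the mutant TAK-418 libraries, the nearest values of the latter pair being 27.79 and 27.78. The summed level of 3 CA3 markers was 29.5 to 32.1 in wild-type vehicle, 31.9 to 43.0 in mutant vehicle, 27.5 to 37.3 in wild-type TAK-418 and 29.5 to 32.3 in mutant TAK-418 libraries, and its part in the levels of Grik4 was not tested. In 10 of 14 libraries some Grik4 transcripts spliced across an unannotated intron of 84399 bases, with a share of 9.86% ± 8.86 (SD, n = 14). An intron of 4379 bases was kept in 12 libraries, with a share of 12.5% ± 6.48 (SD, n = 14).

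Grik5 (chr7:25009849-25072346, minus strand) encodes GluK5, the widely expressed high-affinity subunit that pairs with GluK2 in hippocampal neurons. It was lowest in the wild-type vehicle group, but no difference passed the adjusted threshold. Its level was 85.8, 83.1 and 85.3 in wild-type vehicle libraries 1 to 3 and 94.3, 100.1 and 97.3 in mutant vehicle libraries 1 to 3. It was 92.5, 91.8, 98.4, 98.6 and 103 in wild-type TAK-418 libraries 1 to 5 and 93.0, 91.2 and 101 in mutant TAK-418 libraries 1 to 3. The 3 wild-type vehicle libraries lay between 83.1 and 85.8 and all 11 others between 91.2 and 103. This split was read from the values, and the share of all genes with such a split was not computed. For single pairs of groups with wild-type vehicle, 6.36% to 9.53% of all genes did not overlap. The summed level of 4 neocortex markers was 45.3 to 67.6 in the wild-type vehicle group and 38.7 to 43.3 in mutants on vehicle. It was 43.2 to 45.6 in wild types on TAK-418 and 42.2 to 43.8 in mutants on TAK-418. The neocortex sum thus reached highest in the group where Grik5 was lowest, with a small overlap with wild types on TAK-418. This was not particular to neocortex. The summed markers of CA2 cells (278.8), myelinating oligodendrocytes (4664) and choroid plexus (6497) also had their highest library there. Their ranges in that group overlapped those of all other groups. Of the 4 neocortex markers, Fezf2 ranged most, from 14.8 to 42.8, and was highest in wild-type vehicle replicate 2. Tle4 was highest in wild-type vehicle replicate 3, but Rorb and Cux2 were highest in wild-type TAK-418 libraries. The part of these markers in the Grik5 levels was not tested. In the values as deposited, without scaling between libraries, the wild-type vehicle libraries were at 84.0 to 90.3 and the others at 79.6 to 110, and 8 of the 11 were above all wild-type vehicle libraries. A single coding form made up most of the transcripts. The intron of 277 bases at chr7:25015531-25015807 was kept in 13 of 14 libraries, with a share of 12.3% ± 7.24 (SD, n = 14).

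**Figure D3:**
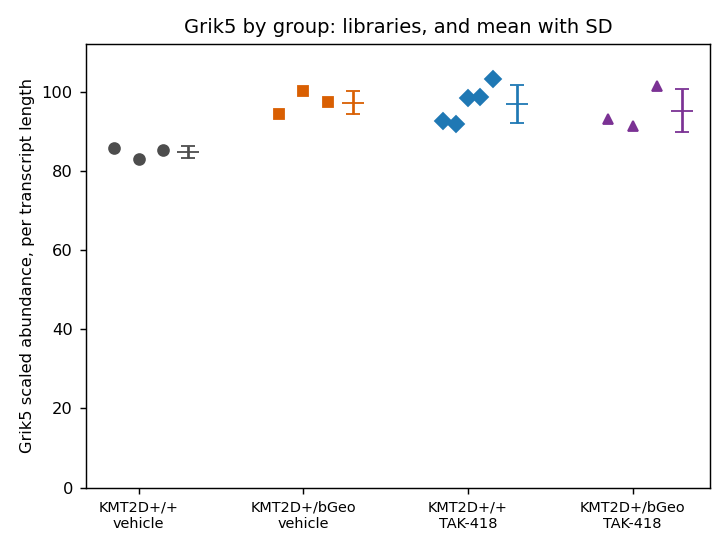
Scaled level of Grik5 in each library by group, on an axis from 0, with the mean and SD of each group to the right of its points. The 3 wild-type vehicle libraries lie between 83.1 and 85.8, below the 11 libraries of the other 3 groups. The share of all genes with such a split was not computed.

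Neto2 (chr8:85636588-85700924, minus strand) encodes an auxiliary protein that modulates the gating of GluK2. Its level was 15.9 ± 2.01 (SD, n = 3) for wild types and 17.1 ± 2.14 (SD, n = 3) for mutants on vehicle, and 15.2 ± 1.26 (SD, n = 5) for wild types and 15.9 ± 1.45 (SD, n = 3) for mutants on TAK-418, and all pairs of groups overlapped. A choice between splice sites adds 21 bases (chr8:85663387-85663407) to a short exon. The bases are in capitals, with 15 bases on each side. The coding length is 1575 bases with them and 1554 without them.
Neto2 optional segment: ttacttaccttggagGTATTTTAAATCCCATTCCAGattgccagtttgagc

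The form with the 21 bases was the main one in every library, at 65.6% ± 4.82 (SD, n = 14) of the abundance. The share was 66.3% ± 5.79 (SD, n = 3) for wild types and 65.1% ± 3.16 (SD, n = 3) for mutants on vehicle, and 65.6% ± 6.08 (SD, n = 5) for wild types and 65.2% ± 5.69 (SD, n = 3) for mutants on TAK-418. The group means differed by less than the spread between libraries. Among the splice choices described here it had the narrowest range relative to its mean, from 55.1% to 73.0%.

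Neto2 transcripts also began at either of 2 first exons. The outer one was used by most of the abundance in every library, and the inner one was assembled in 6 libraries, with a share of 0 to 21.6%. RefSeq (GRCm38.p6) lists a promoter for each, shown here with every CG pair in capitals because the windows differ in it. Each window covers 250 bases before and 50 bases after the start, on the minus strand. The outer window (chr8:85700875-85701174) holds 36 CG pairs and 72.0% G or C, and the inner one (chr8:85690960-85691259) holds 0 CG pairs and 42.7% G or C. Over 32851 windows of 300 bases, the median was 7 CG pairs, 94.6% held at least 1, and 6.23% held at least as many as the outer window. The motif CG reads the same on both strands. Of the 7 members, 5 have an entry in this promoter table.
Neto2 outer promoter: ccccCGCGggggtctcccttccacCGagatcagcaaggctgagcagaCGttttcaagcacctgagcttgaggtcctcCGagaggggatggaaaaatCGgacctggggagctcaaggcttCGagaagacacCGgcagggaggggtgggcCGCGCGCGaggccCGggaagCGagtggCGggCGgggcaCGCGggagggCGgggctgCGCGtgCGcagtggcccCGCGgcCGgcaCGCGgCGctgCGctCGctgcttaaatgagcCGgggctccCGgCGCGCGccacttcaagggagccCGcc
Neto2 inner promoter: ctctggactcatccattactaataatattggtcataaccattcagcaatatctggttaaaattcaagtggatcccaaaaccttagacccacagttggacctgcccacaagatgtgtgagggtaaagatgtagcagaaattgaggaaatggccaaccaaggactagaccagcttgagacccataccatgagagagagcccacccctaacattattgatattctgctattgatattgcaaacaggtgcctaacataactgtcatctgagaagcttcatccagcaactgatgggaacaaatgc

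**Figure D4:**
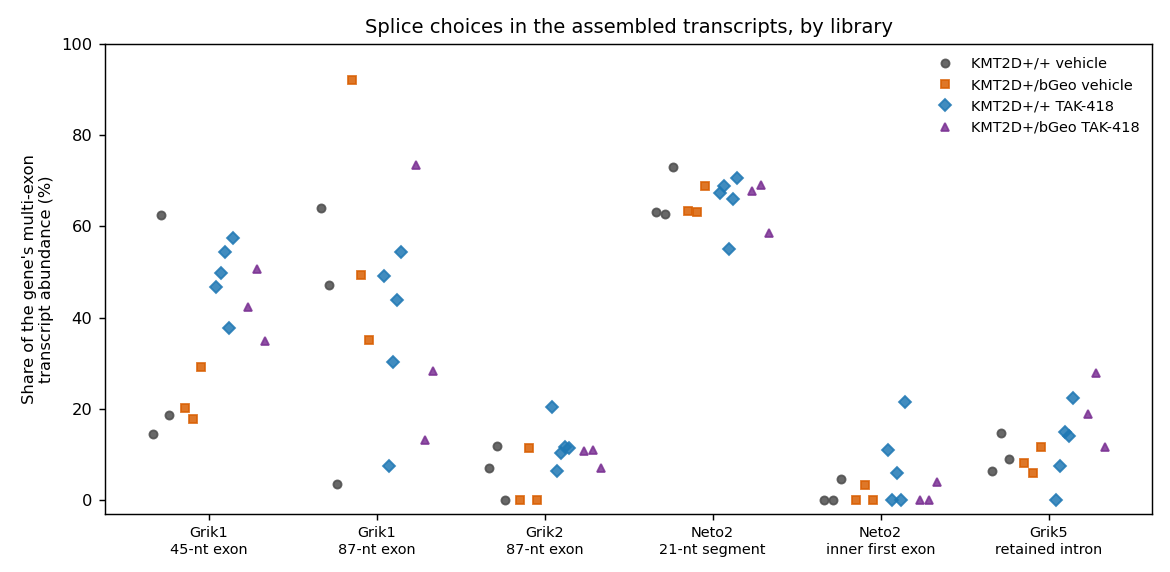
Share of each gene's multi-exon transcript abundance (percent) that carries each splice choice, with 1 point per library and colours for the 4 groups. The optional segment of Neto2 stays between 55.1% and 73.0%, while the junction before the exon of 87 bases of Grik1 runs from 3.51% to 92.1%, with the following intron kept in 7 libraries.

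Neto1 encodes the auxiliary protein most strongly tied to the mossy fibre synapse, where it slows kainate receptor currents. Its level was 46.2, 43.8 and 42.7 in wild-type vehicle, 40.7, 47.0 and 46.9 in mutant vehicle, 46.8, 47.6, 33.4, 41.7 and 45.3 in wild-type TAK-418, and 39.2, 42.2 and 33.8 in mutant TAK-418 libraries, in the order of their replicate numbers. The mutant TAK-418 libraries were all below the wild-type vehicle libraries and overlapped both other groups. Between 1 and 4 transcripts were assembled per library, and none was short.

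Across all genes the genotype and the drug changed almost no gene past the threshold, and no member passed it. The fit used limma on log2(level + 0.9) for the 16550 genes listed in at least 3 libraries, with all 4 groups in 1 model and Benjamini-Hochberg adjustment over all genes. Between mutants and wild types on vehicle, 0% of genes (0 of 16550) had an adjusted p under 0.05 in limma, with 907 genes under 0.05 unadjusted, 1 of them a member. For the genotype effect under TAK-418 the share was 0.0121%, for the TAK-418 effect in mutants 0.00604%, and for treated mutants against vehicle wild types 0.00604%. It was 0% (0 of 16550) both for the TAK-418 effect in wild types, where 1398 genes were under 0.05 unadjusted, and for vehicle mutants against treated wild types, where 1533 were. For the interaction, which asks whether the drug effect differs between genotypes, it was 0.00604%. Member calls were thus 0 of 7 in each of the 7 contrasts, at a background near 0.

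Grik5 was the 1 member with an unadjusted p under 0.05 in the main fit, in 4 contrasts. In 3 of these the wild-type vehicle group is the reference and in the interaction it is also a term, so the 4 values share the same 3 libraries. The log2 difference of Grik5 was 0.20 (SE 0.0524, 95% interval 0.081 to 0.31) for mutants over wild types under vehicle, with an adjusted p of 0.616 and an unadjusted p of 0.00291 in limma. For TAK-418 over vehicle in wild types it was 0.19 (SE 0.0469, 95% interval 0.088 to 0.29), with an adjusted p of 0.274 and an unadjusted p of 0.00164 in limma. For treated mutants over vehicle wild types it was 0.16 (SE 0.0524), with an adjusted p in limma of 0.771 and an unadjusted p of 0.00855. The interaction was -0.22 (SE 0.0703), with an adjusted p in limma of 0.976 and an unadjusted p of 0.00862. Without scaling, the genotype difference under vehicle was 0.11 (unadjusted p of 0.344 in limma), and with abundance weighted by transcript length it was 0.094 (unadjusted p of 0.0707 in limma). With only the highest transcript counted, the difference between treated mutants and vehicle wild types was 0.012. Without the 2 libraries that held most choroid plexus RNA the genotype difference under vehicle was 0.22 (adjusted p = 0.875 in limma). All 6 pairwise log2 differences of Grik5 lay between -0.031 and 0.20.

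**Figure D5:**
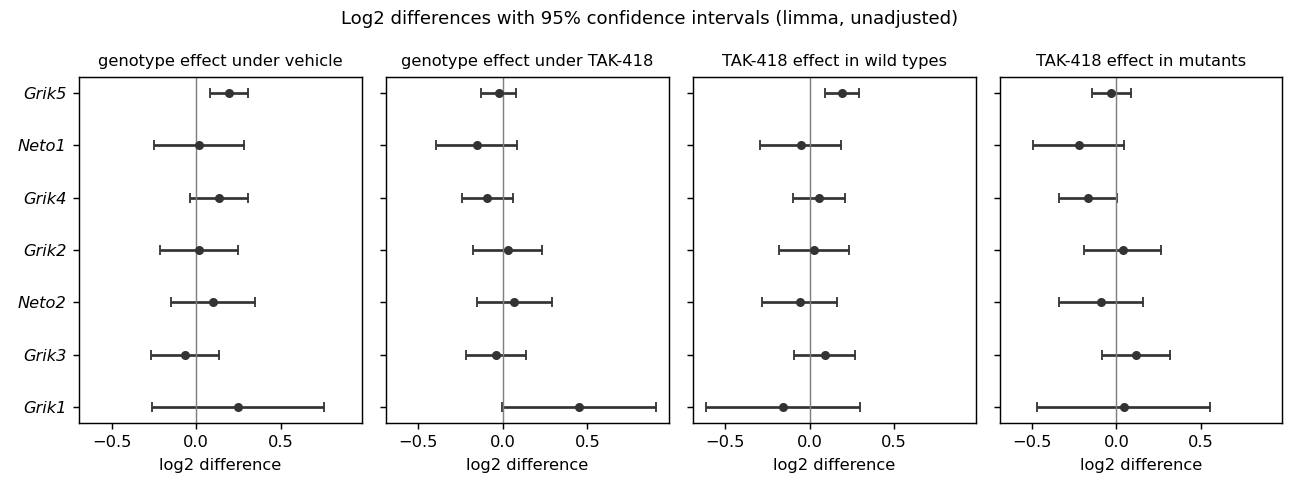
Log2 differences of the 7 members in the genotype and drug contrasts, as points with 95% confidence intervals from limma. The intervals of Grik5 exclude 0 in the genotype effect under vehicle and the TAK-418 effect in wild types, and the Grik1 intervals are the widest.

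The other 6 members had unadjusted p-values above 0.05 in limma in all 7 contrasts of the main fit. The contrast with the smallest p for Grik1 was the genotype effect under TAK-418, with a log2 difference of 0.45 (95% interval -0.0056 to 0.91, adjusted p = 0.924 in limma). With transcripts assigned by exon overlap, which leaves out the short 3′ transcripts, this difference was 0.12 (adjusted p = 0.915 in limma). It was 0.51 with abundance weighted by length (unadjusted p of 0.0127, adjusted p of 0.91 in limma). Without mutant TAK-418 replicate 1 it was 0.67 (unadjusted p of 0.00854, adjusted p of 0.66 in limma). Grik4 differed most between treated and vehicle mutants, by -0.17 (95% interval -0.34 to 0.00053, adjusted p = 1 in limma). That value was 0.042 when only the highest transcript of each gene was counted. Neto1 was 0.22 lower on the log2 scale in the same contrast (log2 difference -0.22, 95% interval -0.49 to 0.044, adjusted p = 1 in limma), but 0.027 higher with abundance weighted by length. Grik3 differed by -0.16 (95% interval -0.34 to 0.023, adjusted p = 0.582 in limma) and Neto2 by 0.16 (95% interval -0.062 to 0.38, adjusted p = 0.630 in limma) between vehicle mutants and treated wild types. Grik2 had its smallest p between treated mutants and vehicle wild types, at 0.054 (95% interval -0.17 to 0.28, adjusted p = 1 in limma). Over the 6 pairwise contrasts, the log2 differences ranged from -0.16 to 0.45 for Grik1, from -0.0095 to 0.054 for Grik2, from -0.16 to 0.12 for Grik3, from -0.17 to 0.13 for Grik4, from -0.22 to 0.070 for Neto1 and from -0.092 to 0.16 for Neto2. Grik2 thus had the narrowest range.

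Groups that did not overlap were seen for 0 to 2 of the 7 members in each pairwise contrast. Under vehicle, 2 of 7 members (Grik4 and Grik5) were higher in every mutant than in every wild-type library, where 8.9% of all genes had groups that did not overlap in either direction. The same was seen for 1 of 7 members for the TAK-418 effect in mutants (Grik4, lower; 8.21% of all genes) and 1 of 7 for the TAK-418 effect in wild types (Grik5, higher; 6.36% of all genes). It was seen for 2 of 7 between treated mutants and vehicle wild types (Grik5 higher and Neto1 lower; 9.53% of all genes) and for 1 of 7 between vehicle mutants and treated wild types (Grik3, lower; 6.24% of all genes). For the genotype effect under TAK-418 it was 0 of 7, with 4.61% of all genes. As a list, 6 of 7 members were higher in mutants under vehicle, with a median log2 difference of 0.10 beside 0 over all genes. The median size of the difference, whatever its sign, was 0.10 for the members and 0.087 for all genes in that contrast. In the other 5 pairwise contrasts the members' median lay between -0.031 and 0.070.

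In the authors' deposited tables, which hold 1 pooled FPKM value per group and no spread, no member was called in any of the 4 comparisons. Among all tested loci, 0.224% were called at a q-value under 0.05 between the genotypes on vehicle and 0.218% between the genotypes on TAK-418. The shares were 0.324% for TAK-418 mutants against vehicle wild types and 0.611% for vehicle mutants against TAK-418 wild types. For Grik5 on vehicle, the authors' deposited table gave 75.2 FPKM in wild types and 81.9 FPKM in mutants, a log2 fold change of 0.12 with a q-value of 1. On TAK-418, the authors' deposited table gave Grik5 80.6 FPKM in mutants and 84.4 FPKM in wild types, with a q-value of 0.930. Wild-type vehicle was thus the lowest group for Grik5 there too, on the same mice. The Grik5 locus of those tables, chr7:25009848-25179882, reaches beyond the gene used here, which ends at 25072346. The 2 values thus need not cover the same transcripts. The smallest p-value of a member in the authors' deposited tables was 0.0437 (q-value 0.695), for Grik3 at 4.85 FPKM in vehicle mutants and 5.55 FPKM in treated wild types. Grik1 had 6.33 FPKM in wild-type vehicle and 6.56 FPKM in mutant vehicle in the authors' deposited table. Grik4 shares its locus with the small RNA gene Gm24420 there, and this joint locus had 17.5 and 20.1 FPKM in the same 2 groups in the authors' deposited table.

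Genes that edit, anchor, traffic or modify kainate receptors showed no call either. Of 23 such genes 22 were tested, and 0 passed the adjusted threshold in limma in any contrast. For the TAK-418 effect in wild types, 5 were higher and 1 lower at an unadjusted p under 0.05, beside 8.45% of all genes, and the median log2 difference of the 22 was 0.050. In the genotype effect under vehicle, 0 were higher and 1 lower, beside 5.48% of all genes. For the TAK-418 effect in mutants, 1 was higher and 0 lower, beside 4.41%, and for the genotype effect under TAK-418, 0 were higher and 1 lower, beside 4.97%. C1ql2, a synaptic organiser secreted by mossy fibres that binds GluK2 and GluK4, had a level of 52.3 ± 2.52 (SD, n = 3) in wild-type vehicle and 63.3 ± 3.91 (SD, n = 5) in wild-type TAK-418 libraries. Its log2 difference was 0.27 (SE 0.0558, adjusted p = 0.186 in limma) in wild types and 0.16 (SE 0.0624, adjusted p = 1 in limma) in mutants. C1ql2 also marks dentate granule cells, whose 5 markers summed to 188 to 223 in wild-type vehicle, 191 to 204 in mutant vehicle, 216 to 225 in wild-type TAK-418 and 218 to 221 in mutant TAK-418 libraries. C1ql2 is itself 1 of these 5 markers, at 49.7 to 70.2 over the 14 libraries, so the sum holds its own differences. The part of these cells in the C1ql2 values was not tested.

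Dlg4, which encodes the postsynaptic scaffold PSD-95, was at 284 ± 6.68 (SD, n = 3) for wild types and 294 ± 12.3 (SD, n = 3) for mutants on vehicle, and 315 ± 4.87 (SD, n = 5) for wild types and 293 ± 5.69 (SD, n = 3) for mutants on TAK-418. Its log2 difference was 0.15 (adjusted p = 0.274 in limma) for TAK-418 in wild types and -0.10 (adjusted p = 0.924 in limma) for the genotype under TAK-418. Dlg1, for the related scaffold SAP97, was 0.17 lower in mutants under vehicle on the log2 scale (log2 difference -0.17, adjusted p = 0.732 in limma). Cdh2, for N-cadherin, which recruits GluK2 to synapses, differed by 0.096 (adjusted p = 0.927 in limma) in the same contrast. Camk2a, for a synaptic kinase, differed by -0.11 (adjusted p = 0.924 in limma) for the genotype under TAK-418. Grip2, for a scaffold protein with PDZ domains, differed by 0.15 (adjusted p = 1 in limma) for TAK-418 in mutants.

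The genes whose log2 levels followed each member most closely over the 14 libraries are given as a description, chosen as the highest of 13881 genes, and these libraries share groups, depth and scaling. They were Mocs2 and Elmod1 for Grik1 (both r = 0.854), Commd7 (r = 0.821) and E130006D01Rik (r = 0.804) for Grik2, and Nos1 (r = 0.898) and Rab15 (r = 0.890) for Grik3. For Grik4 they were Bbs12 (r = 0.891) and Gpr4 (r = 0.815), and for Grik5 Acaa1b (r = 0.890) and Aptx (r = 0.861). For Neto1 they were Bco2 and Rbm28 (both r = 0.858), and for Neto2 5730455P16Rik (r = 0.825) and Slc25a16 (r = 0.799). No member was among the closest genes of another member.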

How the data were processed

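Hippocampal RNA from 14 mice was sequenced (NEBNext Ultra and Ultra II libraries, per the labels' protocols). The submitters' processing notes name TopHat2 2.1.0, FastQC and the build mm10. Transcripts were assembled per library with CLASS 2.1.7, per the file headers, and the deposited abundance score of each transcript behaves as FPKM, judged from its values. The authors also deposited 4 tables of pooled groups, with FPKM, log2 fold change, p-value and q-value per locus. The tool behind the tables is not given in the sources used here. The fold changes of 3 tables correlated best, across genes, with those of the 2 groups in their names. In the table for the genotype on TAK-418 the correlation was 0.302, and 0.340 with vehicle in place of treated mutants.

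An assembled transcript was given to the GENCODE M21 gene (GRCm38) with which it shared an intron, or 50% of its bases where it had a single exon, and values were summed per gene. Overlapping or antisense genes cannot be told apart, since strand use is not stated. Scaling used the median of ratios to the 13274 genes listed everywhere, with factors of 0.845 to 1.06. The 16550 genes listed in 3 libraries or more entered the fit as log2(value + 0.9). The pseudocount is the 10th percentile of nonzero values. The test was limma 3.58.1 (trend) in R 4.3.3 and Benjamini-Hochberg adjustment at 0.05. A log2 difference on this scale understates changes of low genes. Python 3.11.15 did the rest, and the fit was tested on simulated data. Nothing states that libraries were separate RNA extractions beyond their titles, so p-values measure the spread between these libraries.

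Splice choices were found from annotated introns seen in at least 3 libraries. Shares use the abundance of a gene's multi-exon transcripts. The share among transcripts spanning a site, retained and unannotated introns and the split into short and long transcripts were chosen after seeing the data. Exon sequences come from GENCODE M21 transcripts. All members were named with their levels, with single log2 differences for the contrast of smallest p and any unadjusted p under 0.05. The 2 most similar genes per member were named, and the 2 partner genes with the smallest p in each genotype and drug contrast. The members and lists were chosen with earlier results of these data known, although the members were picked by symbol and not by a measured value. Alternatives covered scaling, the gene value, filters, pseudocount, test and each library.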

Additional observations from a re-analysis of the deposited data

Results flagged for a closer look

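Of 23 measures screened in the 5 wild-type TAK-418 libraries, 2 had 1 library apart from the other 4. In both the other 4 were at 0, as for any form assembled in a single library of the group, so the usual rate of about 1 chance flag in 20 does not apply. Grik1 transcripts that kept the intron of 457 bases before the last exon held 49.1% of the multi-exon abundance in replicate 1, the deepest library, and 0 in the other 4. The unannotated Grik4 intron of 6289 bases held 7.57% of the abundance in replicate 3 and 0 in the other 4. It was also assembled in 1 mutant vehicle and 1 mutant TAK-418 library, at 6.55% and 6.50%.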

How the results depend on the processing

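No member was called under any of the alternatives (29, or 28 for the interaction) in any contrast, and the smallest adjusted limma p was 0.193 (Grik5, TAK-418 in wild types, quantile normalization). The authors' tables also had 0 member calls at a q-value of 0.01. The log2 differences of Grik5 kept their direction under all alternatives run. They ran from 0.094 to 0.22 for the genotype under vehicle, from 0.11 to 0.21 for TAK-418 in wild types, and from -0.38 (highest transcript) to -0.092 (weighted by length) for the interaction. For treated mutants against vehicle wild types they ran from 0.012 with the highest transcript (unadjusted p of 0.909 in limma) to 0.20, and without scaling the value was 0.097 (unadjusted p of 0.389 in limma). Counting only the highest transcript turned Grik4 in treated against vehicle mutants to 0.042, and abundance weighted by length turned Neto1 to 0.027 in that contrast. The Grik1 difference for the genotype under TAK-418 ran from 0.12 (exon overlap) to 0.67 (without mutant TAK-418 replicate 1). Grik2, at -0.0061 to 0.125 when libraries were left out, changed sign: between treated mutants and vehicle wild types its difference was -0.012 without scaling, -0.0068 with the highest transcript only, and -0.0061 without wild-type vehicle replicate 3, or without it and mutant vehicle replicate 1 together. The cause was not tested. The highest transcript alone lowered the mean levels to 3.04 (Grik1), 15.7 (Grik2), 22.3 (Grik4), 82.4 (Grik5) and 10.2 (Neto2), since the other transcripts are left out, and 50% exon overlap gave 23.2 for Grik4. Rare splice forms were assembled in some libraries only, and the part of depth in this was not tested. No paired analysis was possible because the labels give no pairing and no replicate numbers.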
